A study of Mus musculus with 22 samples.

Results

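The genes described are 9 germline genes: Dazl, Ddx4, Sycp1, Sycp3, Mael, Stk31, Tdrd1, Stra8 and Tex101. They were chosen by name, from their known roles in germ cells, with earlier results of these data known. They are 9 of the 55487 genes in the deposited tables. RNA was sequenced from mouse embryonic stem cells lacking Dux (Dux-/-), kept in 2i and LIF, a medium that holds such cells in a naive pluripotent state. All groups share this genotype and medium, and all received doxycycline at 0.25 ug/mL for 12 h after 24 h of recovery from plating. Doxycycline switched on a transgene. In the mCherry group it coded only for the red fluorescent tag mCherry, in FL for tagged full-length DUX, and in the remaining groups for tagged derivatives of DUX. DUX is a double homeodomain transcription factor known for activating the genes of 2-cell embryos.

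The derivatives are named C3+14, C1+14, C1C3a, C1C3b, C1C3c, C12345delt14, deltC12345+14 and deltC12345delt14, as in the labels, which do not spell out C1 to C5, 14, a, b, c or delt. They also do not say whether a construct is 1 clone, or whether the 2 replicates of a group are separate cultures, so every p-value measures the spread between these libraries only. Values come from 2 tables scaled separately, a chimera table of 14 libraries (FL, C3+14, C1+14, mCherry and the 3 C1C3 constructs) and a delt table of 8 libraries (FL, C12345delt14, deltC12345+14 and deltC12345delt14). The delt table has no mCherry group, and its FL libraries are those of the chimera table. C3delt14, a further group in the labels, was not analysed here.

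Germline genes are expressed in primordial germ cells, spermatogonia or meiotic cells, and many are silenced in embryonic stem cells by promoter DNA methylation and by a Polycomb complex that contains E2F6, MGA and MAX and that recognises E2F sites and E-boxes. Tdrd1, Mael and Ddx4 act in germ granules, where PIWI-interacting RNAs (piRNAs) that silence transposons are made. Stra8 acts at the entry into meiosis, and Sycp1 and Sycp3 build the synaptonemal complex, which holds paired meiotic chromosomes together.

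A value below is a normalised read count, that is, reads divided by a size factor of the library, and 1 read was worth between 0.620 and 1.81 such units. The libraries of the chimera table held between 21059953 and 32543856 reads each, those of the delt table between 27326760 and 40448890. The 10 embryonic stem cell markers summed to 93553 and 94083 in mCherry, 41086 and 56759.8 in FL and 32615 and 29799 in C1C3b, the lowest. Markers of fibroblasts and of testis somatic cells were low, with sums of 119 to 360.3 and of 121 to 395 over the chimera libraries. Over the delt libraries the sums were 183 to 741 and 155 to 261. The fibroblast markers were not at the same level in all groups, and they differed in direction. Lum had 0 reads in all 4 FL and mCherry libraries but 19 and 31 in C3+14 and 96 and 43 in C1C3b. Dcn had 0 reads in FL and mCherry and 1 to 5 in C3+14 and C1C3b, and Col3a1 had 0 or 1 in FL and mCherry and 30 and 28 in C1C3b. Col1a1 went the other way, with 69 and 62 reads in mCherry, 12 and 12 in C3+14 and 6 and 9 in C1C3b. So did Pdgfrb, with 134 and 102 in mCherry, 14 and 8 in C3+14 and 14 and 21 in C1C3b. The list summed to 150 and 166 in mCherry, 173 and 183 in C3+14 and 184 and 178 in C1C3b. In the delt table it summed to 210 and 183 in FL and 216 and 281 in C12345delt14. There deltC12345+14 had 576 and 612, and deltC12345delt14 496 and 741. Of these sums Pdgfrb gave 23.6 and 70.0 in FL, 456 and 345 in deltC12345+14 and 364 and 570 in deltC12345delt14. Of the testis markers, Cyp17a1, of Leydig cells, had 0 to 5 reads over the chimera libraries and Sox9, of Sertoli cells, 0 to 10. Others of that list were detected and differed between groups. Star had 211 and 151 reads in mCherry, 47 and 32 in FL and 249 and 210 in C1C3b. Acta2 had 229 and 159 in mCherry, 65 and 36 in FL and 12 and 118 in C1C3b. These markers were chosen after their values were seen. Libraries were also of 2 kinds by the share of reads in 1580 genes with high-copy sequence: 14 libraries had 1.66% to 2.58%, and 6 had 0.294% to 0.427% (both of C3+14 and mCherry, deltC12345+14 replicate 2 and deltC12345delt14 replicate 1). In the chimera table this difference cannot be told apart from the group, except where both groups are of the same kind (C3+14 with mCherry, and FL, the C1C3 constructs and C1+14 with each other).

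The promoters of 4 members are shown because the results turn on Tdrd1 and Dazl, which rose, and on Sycp1 and Sycp3, genes of the same structure of which the former was called higher and the latter lower in C1C3c. The Tdrd1 window is that of the first of 3 RefSeq start sites. Each is the 250 bases before a RefSeq start site (GRCm38.p6), printed 5′ to 3′ on the gene's own strand, with E-boxes (CACGTG) and matches to TTCCCGC, an E2F-type motif that appears as GCGGGAA on the other strand, in capitals. The windows are chr19:56825959-56826208 (plus strand) for Tdrd1, chr17:50293621-50293870 (minus strand) for Dazl, chr3:102936101-102936350 (minus strand) for Sycp1 and chr10:88459337-88459586 (plus strand) for Sycp3.
Tdrd1: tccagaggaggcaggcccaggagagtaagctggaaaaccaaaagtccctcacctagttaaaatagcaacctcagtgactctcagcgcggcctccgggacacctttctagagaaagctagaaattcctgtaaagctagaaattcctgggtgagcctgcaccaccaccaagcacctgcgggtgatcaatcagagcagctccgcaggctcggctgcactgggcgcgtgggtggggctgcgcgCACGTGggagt
Dazl: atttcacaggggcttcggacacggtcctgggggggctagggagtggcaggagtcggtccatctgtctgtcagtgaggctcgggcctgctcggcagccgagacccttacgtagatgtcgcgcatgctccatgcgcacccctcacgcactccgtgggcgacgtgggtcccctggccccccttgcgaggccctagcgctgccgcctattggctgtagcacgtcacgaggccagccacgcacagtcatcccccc
Sycp1: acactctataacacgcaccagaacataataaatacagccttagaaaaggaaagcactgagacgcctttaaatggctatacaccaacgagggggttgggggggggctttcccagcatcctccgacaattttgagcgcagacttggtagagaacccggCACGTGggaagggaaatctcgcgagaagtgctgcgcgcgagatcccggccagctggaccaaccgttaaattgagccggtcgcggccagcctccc
Sycp3: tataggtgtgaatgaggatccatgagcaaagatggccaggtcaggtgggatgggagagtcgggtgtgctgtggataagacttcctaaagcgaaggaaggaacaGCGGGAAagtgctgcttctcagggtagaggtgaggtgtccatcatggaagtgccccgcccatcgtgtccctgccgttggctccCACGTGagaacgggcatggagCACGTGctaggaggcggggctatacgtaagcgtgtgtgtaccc
The Tdrd1 window held 1 E-box, at position -11 from the start site, the Sycp1 window 1 at -94, and the Sycp3 window 2 E-boxes and 1 TTCCCGC match. The Dazl window held neither motif and had 20 CpG dinucleotides, against a median of 6 over all promoters. That number did not set Dazl apart: the Tdrd1, Sycp1 and Sycp3 windows shown had 11, 17 and 12. Of the windows not shown, Ddx4 had 31, Mael 18, Stk31 21 and 26, the other Tdrd1 windows 22 and 3, Tex101 14 and Stra8 5. Some RefSeq start sites lay far from the annotated gene start, by 785 bases for Stra8, 4625 for Tex101 and 4503 for the last Tdrd1 site. The Stra8 window lay wholly in exon of Stra8 (250 bases). All 9 members matched a RefSeq promoter, 12 in all. An E-box lay in 8 of these 12 promoters, belonging to 6 members, and in 6.02% of 32851 promoters of the same length. The 2 Stk31 windows overlap and hold the same E-box, as do 2 of the 3 Tdrd1 windows, so each of these sites enters the 8 more than once. TTCCCGC lay in 2 of them (Ddx4 and Sycp3) and in 3.82% of all promoters. The E-box and TTCCCGC were searched on both strands and do not overlap each other. A DUX-type motif was searched too. It lay in 0 of the 12 promoters and was rare, in 0.0304% of all promoters. A match is only a match of letters in the window.

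In mCherry cells, per kilobase of exon, Dazl had the highest level of the 9 at 293 ± 16.7 (SD, n = 2) normalised reads per kilobase. Stra8 followed at 102 ± 12.7, Ddx4 at 94.9 ± 7.86, Stk31 at 93.8 ± 3.05, Sycp3 at 71.6 ± 4.31 and Mael at 69.9 ± 7.18. Sycp1 at 25.3 ± 0.969 and Tex101 at 11.1 ± 1.13 were lower, and Tdrd1 was the lowest at 2.17 ± 0.497. In FL the same scale gave Dazl 948 ± 684, Mael 269.8 ± 14.8, Stk31 193 ± 7.04, Ddx4 192 ± 29.5 and Tdrd1 41.6 ± 14.3. All 9 members passed the filter on low values in both tables (at least 10 in at least 2 libraries), although Tex101, and Tdrd1 in mCherry and C1+14, rested on few reads.

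**Figure D1:**
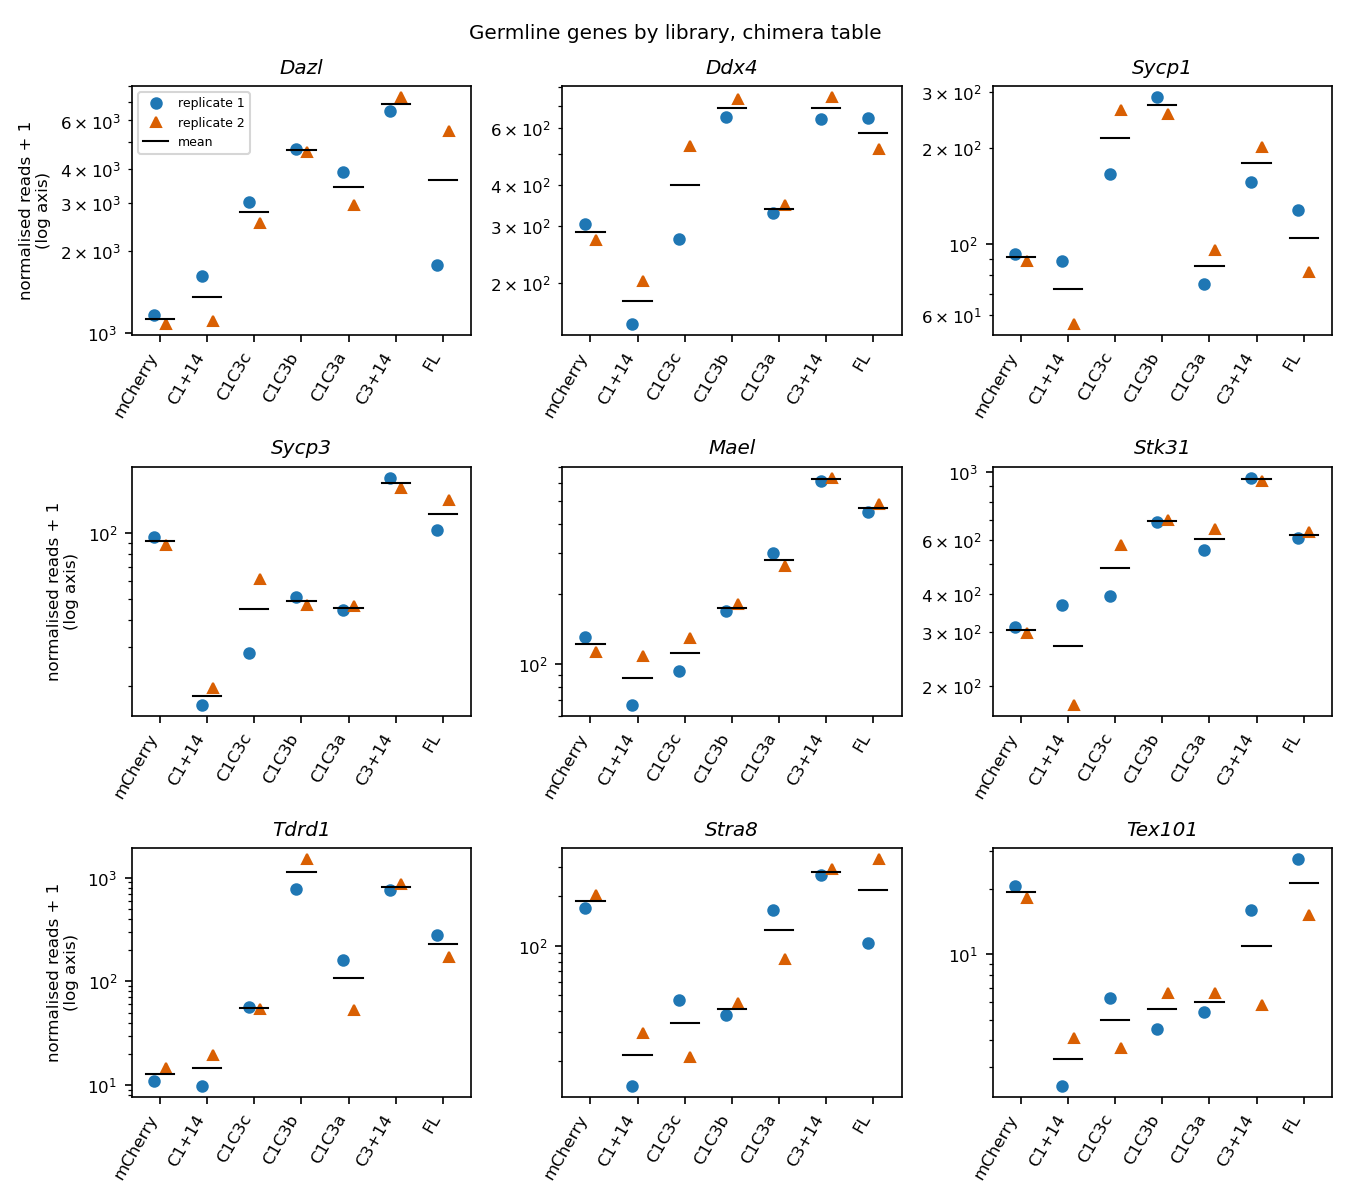
Normalised reads + 1 (log axis) of each germline gene in the 14 libraries of the chimera table, with 1 panel per gene, points for the 2 replicates of each group and a line for their mean. Tdrd1 spans from about 10 in mCherry and C1+14 to between 776 and 1505 in C1C3b, while Stra8, Sycp3 and Tex101 are lowest in C1+14.

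With full-length DUX, 5 of the 9 members were called higher than in mCherry and 0 lower. Tdrd1 rose the most, followed by Mael, Dazl, Stk31 and Ddx4, while Sycp1, Sycp3, Stra8 and Tex101 did not pass the test. A gene was called when limma's Benjamini-Hochberg adjusted p was under 0.05 over all genes tested and its log2 fold change was at least 1 in size. By that rule 44.2% of all genes tested were called in FL against mCherry, 24.5% higher and 19.6% lower, so that many genes outside the list were called too. The members' median log2 difference was 1.01, against 0.09 over all genes tested. The 6 comparisons with mCherry share its 2 libraries. Except in C3+14, they also set high-share against low-share libraries, so that group and kind of library cannot be told apart.

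Tdrd1 codes for a Tudor domain protein that binds PIWI proteins in germ granules (chromosome 19, 56826209 to 56870012, plus strand, GRCm38). It had 9.90 and 13.7 normalised reads in mCherry (15 and 16 reads), 281 and 171 in FL, and 766 and 863 in C3+14. C1C3b gave 776 and 1505, C1C3a 161 and 52.4, C1C3c 55.8 and 52.8, and C1+14 8.77 and 18.6. Every library of FL, C3+14 and the C1C3 constructs lay above both mCherry libraries, and C1+14 overlapped them. Against mCherry the log2 fold change was 4.12 in FL (SE 0.49, adjusted p = 1.02e-05), 6.01 in C3+14 (adjusted p = 2.87e-07) and 6.42 in C1C3b (adjusted p = 2.34e-07). It was 2.87 in C1C3a (adjusted p = 2.16e-04) and 2.12 in C1C3c (adjusted p = 0.00355), and 0.13 in C1+14, which did not pass (adjusted p = 0.907) and was -0.25 after quantile normalization. The 5 calls stood under every alternative run, including each library left out in turn and every scaling.

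In the order of Tdrd1 means, C1C3b, C3+14, FL, C1C3a, C1C3c, C1+14 and mCherry, 2 neighbouring steps passed: C3+14 above FL (log2 1.88, adjusted p = 0.00835) and C1C3c above C1+14 (log2 2.00, adjusted p = 0.0182). C1C3b and C3+14, at the top, did not differ beyond their spread (log2 0.41, SE 0.49, adjusted p = 0.519), nor did C1+14 and mCherry. FL lay above C1C3a with no overlap but did not pass the adjusted threshold (log2 1.25, SE 0.49, adjusted p = 0.0820), and neither did C1C3a over C1C3c (log2 0.75, adjusted p = 0.213), whose libraries overlapped. Non-neighbours differed: C1C3b was above FL (log2 2.29, adjusted p = 0.00133) and above C1C3a (log2 3.54, adjusted p = 6.08e-05). C1C3c was below FL (log2 -1.998, adjusted p = 0.00346) and below C1C3b (log2 -4.29, adjusted p = 6.82e-05), and C1C3a was below C3+14 (log2 -3.13, adjusted p = 6.77e-04). Of all genes, 43% were called between C1C3b and FL, 35.6% between C1C3b and C1C3a, 30.2% between C1C3b and C3+14, 44% between C1C3c and FL, 11.2% between C1C3c and C1C3b, 39.7% between C1C3c and C1C3a and 14.9% between C1C3a and C3+14. Of the steps at the low end, C1C3c over C1+14 lost its call without C1C3c replicate 1 (adjusted p = 0.0527) or replicate 2 (0.0982) or C1+14 replicate 1 (0.103), and C1C3c under FL lost it with library totals (log2 -0.78). The step of C3+14 over FL was lost without FL replicate 2 (adjusted p = 0.0661) or C3+14 replicate 2 (0.0594). The order of the 2-cell markers differed from that of Tdrd1 mainly in C1C3b. Their sum over 6 genes was 18930 and 13384 in C1C3b, where Tdrd1 was highest. It was 1355140 and 725112 in FL and 724971 and 792252 in C3+14, which overlapped. C1C3a had 323957 and 476214 and C1C3c 897 and 823, with C1+14 lower and mCherry lowest. Apart from C1C3b, and from the overlapping FL and C3+14, the order of the groups was that of the Tdrd1 means.

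Mael, whose protein Maelstrom takes part in piRNA-guided transposon silencing (chromosome 1, 166201201 to 166238747, minus strand), had 130.0 and 112 in mCherry, 449 and 486 in FL and 613 and 627 in C3+14. C1C3a gave 298 and 262, C1C3b 168 and 180.2, C1+14 65.8 and 107, and C1C3c 92.7 and 129. FL, C3+14 and C1C3a stood apart from mCherry and were called, by log2 1.94 (SE 0.24, adjusted p = 1.43e-05), 2.35 and 1.20. C1C3b lay above both mCherry libraries without passing the test (log2 0.52, adjusted p = 0.0782), and C1C3c overlapped them.

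Ddx4, the mouse Vasa homologue and an RNA helicase of germ granules (chromosome 13, 112598333 to 112652475, minus strand), had 303 and 269 in mCherry and 642 and 517 in FL. In C3+14 it had 637 and 745, in C1C3b 646 and 734, in C1C3a 328 and 345, in C1+14 148 and 202, and in C1C3c 273 and 529. FL, C3+14 and C1C3b were above mCherry with no overlap and were called, by log2 1.01, 1.27 and 1.27, all close to the threshold of 1. The direction in FL turned under a scaling to library totals, which gave -0.021.

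Stk31, which codes for a germ cell protein with a Tudor and a kinase domain (chromosome 6, 49395604 to 49469501, plus strand), had 311 and 297 in mCherry, 607 and 639 in FL, and 955 and 939 in C3+14. C1C3b gave 687 and 697, C1C3a 558 and 649.8, C1C3c 394 and 577, and C1+14 367 and 172. The call was higher in FL (log2 1.03), C3+14 (1.64) and C1C3b (1.19), and C1C3a fell just short of the fold threshold at 0.98 (adjusted p = 0.00664). Only C1+14 overlapped mCherry.

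Dazl, an RNA-binding protein that germ cell development requires (chromosome 17, 50279395 to 50293636, minus strand), had 1165 and 1075 in mCherry. It had 1772 and 5469 in FL, 6517 and 7293 in C3+14, 3873 and 2942 in C1C3a, 4731 and 4611 in C1C3b, 3002 and 2530.0 in C1C3c, and 1607 and 1103 in C1+14. The FL replicates differed more than those of any other group, and all groups but C1+14 stood above mCherry. Dazl was called higher in FL (log2 1.48, SE 0.36, adjusted p = 0.00319), C3+14 (2.62), C1C3a (1.59), C1C3b (2.06) and C1C3c (1.30). Without FL replicate 2 the FL difference was 0.66 and was no longer called. Without that library Stk31 also lost its call in FL (log2 1.00), and Ddx4 lost it without FL replicate 1 (0.85) or mCherry replicate 2 (0.93). In C1C3c the Dazl call was lost without C1C3c replicate 1 (adjusted p = 0.0572) or mCherry replicate 2 (0.0592).

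Sycp1, the transverse filament protein of the synaptonemal complex (chromosome 3, 102818499 to 102936100, minus strand), had 92.4 and 87.5 in mCherry and 127 and 80.9 in FL, which overlapped. C1C3b had 287 and 254, C1C3c 165 and 261, C3+14 156 and 201, C1C3a 74.2 and 94.9, and C1+14 87.7 and 55.2. It rose in C1C3b (log2 1.58) and in C1C3c (log2 1.20), the latter falling to 0.87 and losing its call without C1C3c replicate 2. In C3+14 it had a log2 difference of 0.97, under the fold threshold (adjusted p = 0.0160). Of the members, it alone shares sequence with other genes, in 6.11% of its 50-base windows.

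Sycp3, of the axial element of the same complex (chromosome 10, 88459569 to 88473236, plus strand), had 94.4 and 86.6 in mCherry, 102 and 139 in FL and 176 and 159 in C3+14. It was lower in the others, with 43.2 and 45.3 in C1C3a, 27.1 and 60.2 in C1C3c, and 15.4 and 18.6 in C1+14. C1C3b had 49.99 and 46.0. These 4 groups lay below both mCherry libraries, and C3+14 and FL above them. The calls were lower in C1+14 (log2 -2.35), C1C3c (-1.14) and C1C3a (-1.02). In C1C3a Sycp3 lost its call without any 1 of the 4 libraries (adjusted p from 0.0676 to 0.108), with a pseudocount of 8 (log2 -0.91) and with size factors from genes without shared sequence (log2 -0.83). In C1C3c it lost its call without C1C3c replicate 1 (log2 -0.58), mCherry replicate 1 or mCherry replicate 2, with edgeR (log2 -0.9995) and with library totals (log2 -0.96). Sycp3 lies inside Chpt1, which is on the opposite strand, and whether the counting used strand is not given in the sources used here.

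Stra8, a retinoic acid-induced factor for entry into meiosis (chromosome 6, 34920163 to 34939344, plus strand), had 168 and 201 in mCherry, 103 and 331 in FL and 266 and 288 in C3+14. In C1C3a it had 164 and 82.1, in C1+14 13.2 and 28.5, in C1C3c 46.0 and 20.3, and in C1C3b 36.8 and 44.1. It fell in C1+14 (log2 -3.18), C1C3c (-2.55) and C1C3b (-2.16), where no library reached the mCherry values, and these 3 calls stood in every alternative run. FL libraries lay on both sides of mCherry. Tex101, a surface protein of male germ cells (chromosome 7, 24668007 to 24676675, minus strand), had 19.8 and 17.2 in mCherry (30 and 20 reads) and 26.5 and 14.3 in FL. C3+14 had 15.1 and 4.86, and the C1C3 constructs and C1+14 had from 1.46 to 5.66 (2 to 7 reads). Its calls were lower in C1C3a (log2 -1.69), C1C3b (-1.83), C1C3c (-2.01) and C1+14 (-2.61), with adjusted p-values up to 0.119 when single libraries were left out: both mCherry libraries mattered in the C1C3 constructs, as did C1C3a replicates 1 and 2, C1C3b replicate 1 and C1C3c replicate 2, and mCherry replicate 1 in C1+14. In C1C3a the Tex101 call was also lost with a pseudocount of 0.1 (adjusted p = 0.0515), with no filter (0.0653) and with DESeq2 (0.0742).

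Counted by group, C3+14 had 5 members higher than mCherry and 0 lower, in a comparison that called 47.3% of all genes, 29.6% higher and 17.7% lower. C1C3a had 3 higher and 2 lower, beside 46.4% of all genes called (27.4% higher, 19% lower). C1C3b had 5 higher and 2 lower, beside 44.7% (27.6% and 17.1%), and C1C3c had 3 and 3, beside 28.8% (18.3% and 10.5%). C1+14 had 0 higher and 3 lower, Sycp3, Stra8 and Tex101, beside 18.3% (12.4% and 5.95%). The members' median log2 difference ran from 1.27 in C3+14 and 1.19 in C1C3b to 0.41 in C1C3c, 0.24 in C1C3a and -0.52 in C1+14. The medians over all genes tested were 0.23, 0.15, 0.01, 0.12 and 0. With 1 library left out at a time, the FL count was 3 to 5, the 3 being without FL replicate 2. It was 3 or 4 in C1C3a, with 3 without C1C3a replicate 2 or mCherry replicate 2, and 3 or 4 in C1C3c, where every library mattered and mCherry replicate 2 the most. In C1+14 it was 2 without mCherry replicate 1. Since these are bulk samples, fewer cells expressing a gene and less of its RNA per cell cannot be told apart.

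**Figure D2:**
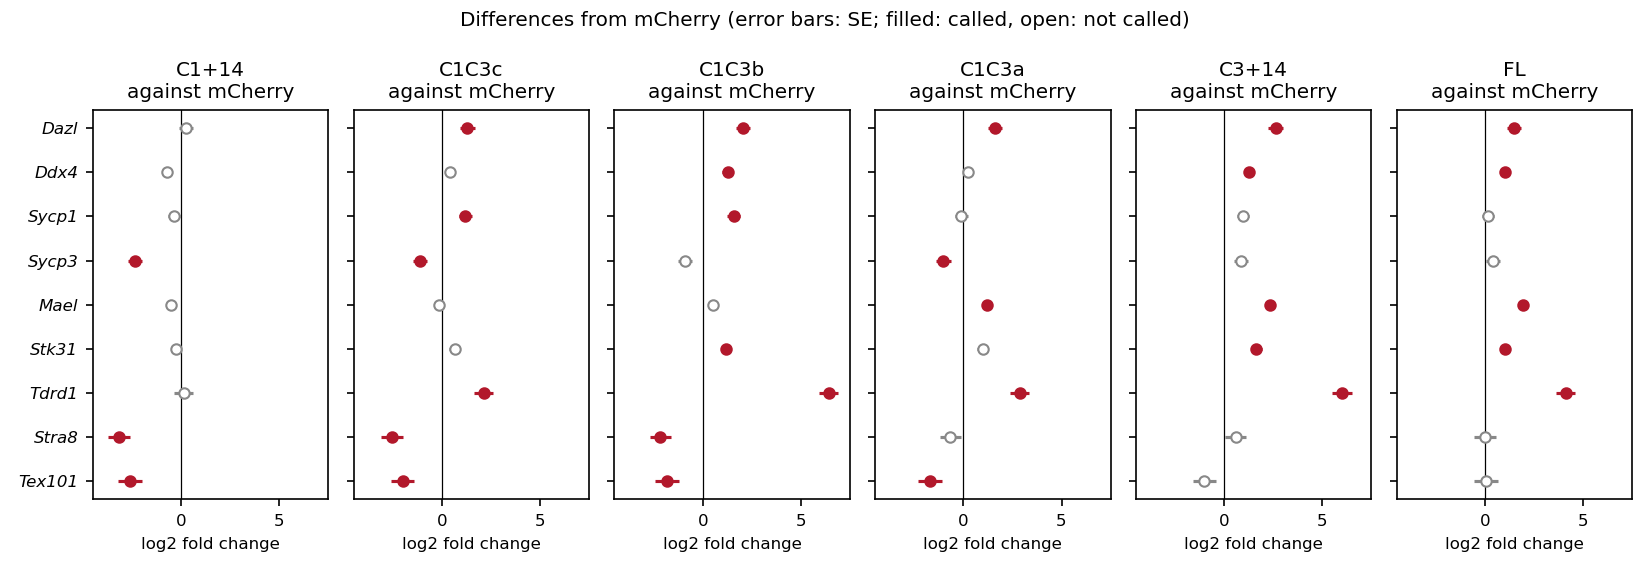
Log2 fold change of each germline gene against mCherry in the 6 constructs of the chimera table, with error bars for the SE; filled points were called and open points were not. Tdrd1 lies at 4.12 to 6.42 in FL, C3+14 and C1C3b, and Stra8 lies at -2.16 to -3.18 in C1C3b, C1C3c and C1+14.

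The size of these differences moved with the scaling of the libraries. The median of all genes tested in FL against mCherry was 0.09 with the deposited size factors, -0.27 after quantile normalization and -0.86 after scaling to library totals. The share of called genes that were higher was 55.5%, 41.2% and 28.0% in turn. With library totals 1 of the 5 calls in FL remained, that of Tdrd1 (log2 3.12), and Dazl had 0.44, Mael 0.91 and Stk31 0.00. Dazl, Mael, Stk31 and Ddx4 all lay above the median of all genes on that scale. That scaling moves all genes by about the same amount, so their place relative to the median could change little. In C3+14 against mCherry, where both groups have the low share of high-copy reads, library totals moved the median from 0.23 to -0.52 and the calls of Ddx4 (0.48) and Stk31 (0.85) were lost. The shares of higher calls there were 62.6% with the deposited size factors, 42.4% after quantile normalization and 37.3% with library totals. In C1C3a they were 59.0%, 41.0% and 32.9%, and Dazl (0.68) and Mael (0.29) lost their calls with library totals, Mael (0.92) also after quantile normalization. In C1C3b they were 61.7%, 47.8% and 58.4%, and every member call stood.

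**Figure D3:**
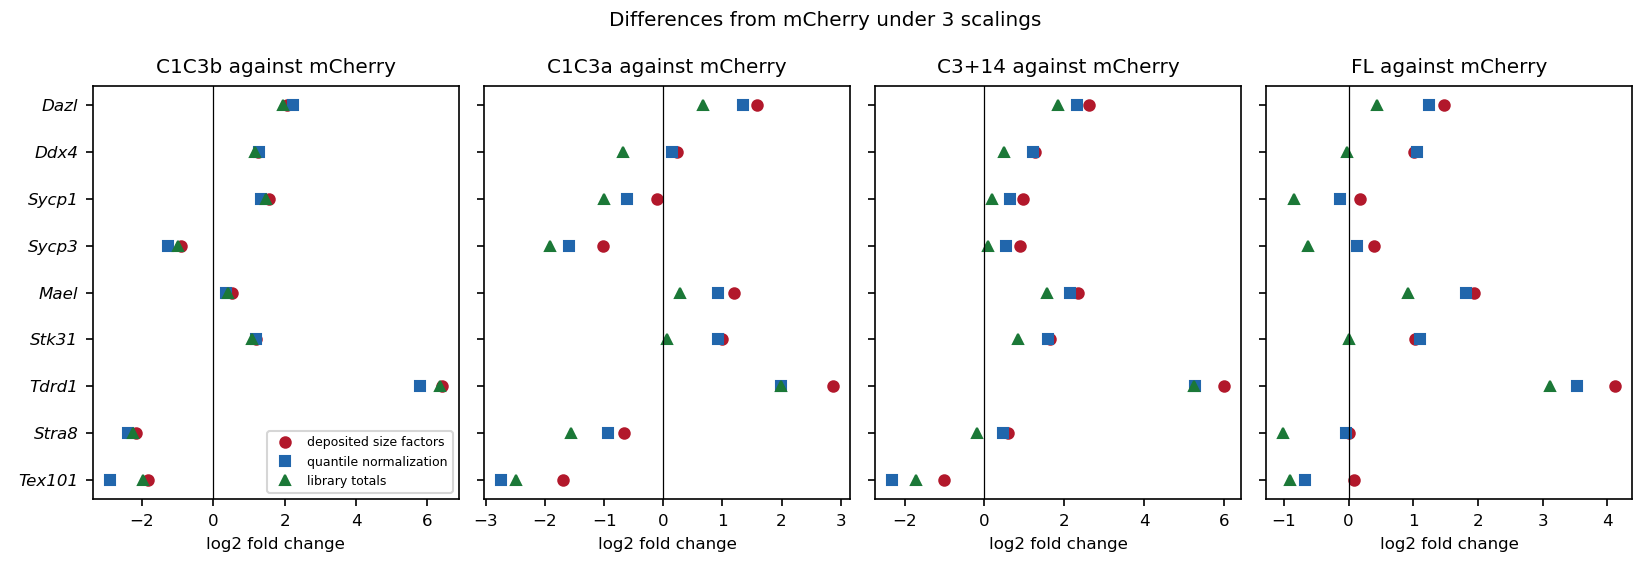
Log2 fold change against mCherry under 3 scalings (deposited size factors, quantile normalization and library totals) for C1C3b, C1C3a, C3+14 and FL; each panel has its own axis. In FL the library totals move every gene to the left by about 1, leaving Tdrd1 at 3.12 and Ddx4 at -0.021, whereas in C1C3b Tex101 lies at -1.83 with the deposited size factors and -2.91 after quantile normalization, and Tdrd1 at 6.42 and 5.79.

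C3+14 exceeded FL in 2 members, Tdrd1 and Dazl, in a comparison that called 26.3% of all genes, 16.8% higher and 9.54% lower. Dazl had a log2 difference of 1.15 (SE 0.36, adjusted p = 0.0222), which fell to 0.33 without FL replicate 1, its low library. Its call was also lost without either C3+14 replicate (adjusted p = 0.0684 and 0.115). Without C3+14 replicate 2 neither gene was called, and without FL replicate 2 or C3+14 replicate 1 a single one was. C1C3a was below FL in 2 members, Sycp3 (log2 -1.41) and Tex101 (log2 -1.77), where 15.6% of all genes were called, 11% higher and 4.62% lower. Without any 1 of the 4 libraries that count was 1. Sycp3 lost this call without FL replicate 2 (adjusted p = 0.0636) or C1C3a replicate 1 (adjusted p = 0.0582), and Tex101 without FL replicate 1 or either C1C3a replicate (adjusted p from 0.0982 to 0.225). The Tex101 call against FL was also lost with a pseudocount of 0.1, no filter, edgeR, DESeq2, the replicate block and library totals (adjusted p from 0.0587 to 0.113).

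C1+14 had the lowest mean of the 7 groups for every member but Dazl and Tdrd1, which were lowest in mCherry. It was below C3+14 in all 9 (44.6% of all genes called in that pair, 18.7% higher and 25.9% lower) and below FL in 8, all but Sycp1 (39.9% called, 18.4% higher and 21.5% lower). With library totals each of these counts was 5, and the C1C3a count above C1+14, given next, was 1. Set against C1+14, C1C3b had 7 members higher (28.9% of all genes called, 17.9% higher and 11% lower), namely all but Stra8 and Tex101. C1C3a had 6 higher (40.8%, 23.4% and 17.3%), namely Dazl, Sycp3, Mael, Stk31, Tdrd1 and Stra8. C1C3c had 4 higher (7.83%, 5.37% and 2.46%), Ddx4, Sycp1, Sycp3 and Tdrd1, and no member was lower in any of the 3. These 3 comparisons share the C1+14 libraries, and all their groups are of the high-share kind. The C1C3c count was 0 without C1C3c replicate 2 and 2 without either C1+14 replicate.

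In the delt table, the 2 constructs with deltC12345 had less Tdrd1 than FL. Tdrd1 had 346 and 214 normalised reads in FL, 114.3 and 36.9 in C12345delt14, 17.5 and 29.4 in deltC12345+14 (25 and 41 reads), and 18.1 and 9.12 in deltC12345delt14 (22 and 11 reads). Neither of the last 2 groups overlapped C12345delt14 or FL. The log2 difference from FL was -3.52 in deltC12345+14 (SE 0.63, adjusted p = 0.00274) and -4.30 in deltC12345delt14 (adjusted p = 0.00114). C12345delt14 exceeded deltC12345delt14 (log2 2.25, adjusted p = 0.0302), a call lost without C12345delt14 replicate 1 (log2 1.45, adjusted p = 0.204) or deltC12345delt14 replicate 2 (log2 1.79, adjusted p = 0.125), after quantile normalization (1.81) and with library totals (1.63). C12345delt14 lay below FL without passing (log2 -2.05, adjusted p = 0.109).

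**Figure D4:**
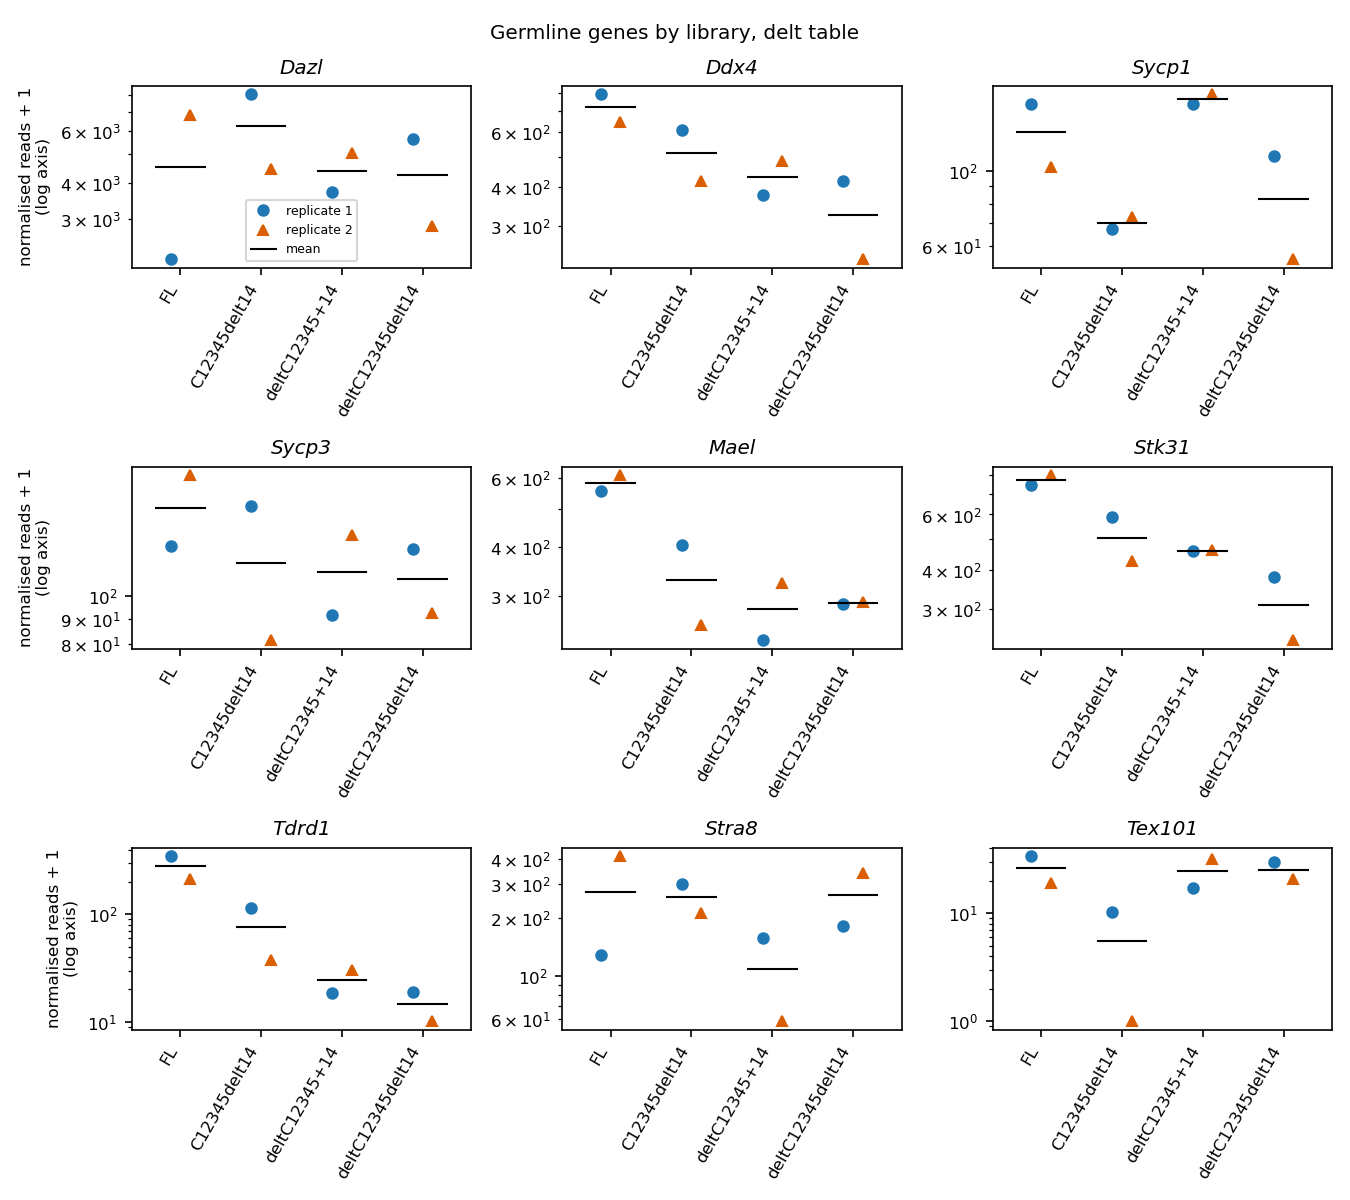
Normalised reads + 1 (log axis) of each germline gene in the 8 libraries of the delt table, with 1 panel per gene, points for the 2 replicates and a line for their mean. Tdrd1 falls from 346 and 214 in FL to between 9.12 and 29.4 in the 2 constructs with deltC12345, and the Dazl libraries of all groups overlap.

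Mael, Ddx4 and Stk31 were also highest in FL. Mael had 553 and 608 in FL, 404 and 252 in C12345delt14, 230.0 and 322 in deltC12345+14, and 286 and 288 in deltC12345delt14, with FL above all others. It was called lower than FL in deltC12345+14 (log2 -1.09, adjusted p = 0.0118) and in deltC12345delt14 (-1.01, adjusted p = 0.0156). Ddx4 had 790.1 and 646 in FL, 607 and 416 in C12345delt14, 375 and 481 in deltC12345+14, and 415 and 234 in deltC12345delt14. Stk31 had 747 and 799.6 in FL, 586 and 425 in C12345delt14, 457 and 460.4 in deltC12345+14, and 379 and 237 in deltC12345delt14. Both were called lower than FL in deltC12345delt14, Ddx4 by log2 -1.19 (adjusted p = 0.0144) and Stk31 by -1.36 (adjusted p = 0.00343).

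These calls were less firm than those of Tdrd1. With library totals Mael turned to 0.13 in deltC12345+14 and 0.16 in deltC12345delt14, and Ddx4 (-0.025) and Stk31 (-0.19) lost their calls; that scaling moved the median of all genes to 1.11 and 1.05. Mael in deltC12345delt14 lost its call without any 1 of the 4 libraries (adjusted p from 0.0525 to 0.0684). In deltC12345+14 it was lost without FL replicate 2 (adjusted p = 0.0555) or deltC12345+14 replicate 1 (0.0675). The Ddx4 call was lost without FL replicate 1 (adjusted p = 0.0920) or deltC12345delt14 replicate 2 (0.0765).

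The remaining members were not called in this table in the main test. Dazl had 2180.0 and 6840.4 in FL, 8047 and 4447 in C12345delt14, 3703 and 5073 in deltC12345+14, and 5635 and 2847 in deltC12345delt14, so all groups overlapped. Sycp1 had 156 and 101 in FL, 66.3 and 72.2 in C12345delt14, 156 and 167 in deltC12345+14, and 109 and 53.9 in deltC12345delt14. Sycp3 ran from 80.4 to 174 and Stra8 from 57.5 to 414 over the 8 libraries. Tex101 had 32.6 and 17.9 in FL and 9.14 and 0 in C12345delt14 (8 and 0 reads), and 16.1 to 30.9 in the other groups. Its difference between C12345delt14 and deltC12345delt14 did not pass (log2 -2.97, SE 1.01, adjusted p = 0.0571).

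By count, C12345delt14 against FL called 0 of 9 members, where 0.958% of all genes were called (0.338% higher, 0.62% lower). At an unadjusted p under 0.05 limma had 4 members and 4935 genes, edgeR called 0 members and DESeq2 called 1, Tdrd1. Against FL, deltC12345+14 had 2 members lower and 0 higher (38.4% of all genes called, 18.4% higher and 20% lower), and 1 without FL replicate 2 or deltC12345+14 replicate 1. deltC12345delt14 had 4 lower and 0 higher (39.1%, 18.8% and 20.3%), and 2 without FL replicate 1 or deltC12345delt14 replicate 2. C12345delt14 against deltC12345delt14 had 1 higher (22%, 12.6% and 9.4%), 0 without deltC12345delt14 replicate 2 and 2 without its replicate 1. deltC12345+14 against deltC12345delt14 called 0 members and 0% of all genes; at an unadjusted p under 0.05 limma had 2 members and 543 genes, and edgeR and DESeq2 called 0 members. Whether the effect of 14 depended on C12345 was tested as an interaction, and no member passed (adjusted p from 0.350 to 0.986), nor did any of the 19833 genes. For Tdrd1 the difference of the effects was 1.27 on the log2 scale (SE 0.89).

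In deltC12345+14 and deltC12345delt14 the 2 replicates are of different library kinds, so the kinds can be compared within a construct. The ratio of the high-share to the low-share library was 0.595 and 0.505 for Tdrd1, 0.730 and 0.505 for Dazl, 0.778 and 0.563 for Ddx4, 0.688 and 0.740 for Sycp3, and 0.522 and 0.692 for Tex101. For Stra8 it was 2.73 and 1.88, and no other member was above 1 in both constructs. With the kind of library as a term, added after seeing the data, all 7 member calls of this table stood. The part of the library kind in the differences between constructs and mCherry was not tested.

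Other genes of the same pathways were read from lists written by function. Of 18 other piRNA pathway genes, 17 were tested in FL against mCherry, with 4 higher, 2 lower and a median of 0.28. Over all genes 24.5% were higher and 19.6% lower, and the list's counts lie near or under those shares. Asz1, a germ granule protein at mitochondria, rose from 15.8 and 11.2 to 380.1 and 83.3 (log2 3.65), and it was also called higher in every other construct of the chimera table. Tdrd5, another Tudor protein, rose from 8.58 and 6.86 to 38.3 and 24.998 (log2 1.88), a call lost without FL replicate 1 (adjusted p = 0.0932) or mCherry replicate 2 (0.0732), after quantile normalization (0.97) and with library totals (0.91). Pld6, a mitochondrial nuclease of piRNA biogenesis, fell from 137 in each mCherry library to 29.5 and 44.0 (log2 -1.90), and Tex15 fell from 294 and 335 to 116 and 78.6 (log2 -1.70). C3+14 had 7 higher and 1 lower of these genes, beside 29.6% and 17.7% over all genes, and C1C3b 4 and 1, beside 27.6% and 17.1%. C1C3c had 3 and 2, beside 18.3% and 10.5%, and C1C3a 2 and 3, beside 27.4% and 19%. C1+14 had 4 and 4, beside 12.4% and 5.95%. In C1C3b, Tdrkh, a Tudor and KH domain partner of PIWI proteins, rose from 85.8 and 99.5 to 762 and 786 (log2 3.05). In C1+14, where no member rose, Tdrd5 (70.2 and 40.3, log2 2.64) and Asz1 (73.8 and 71.9, log2 2.37) were higher and Fkbp6 lower (258 and 556 against 1383 and 1321, log2 -1.83).

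Of 27 other genes of the meiotic chromosome axis, synapsis and recombination, 22 were tested in FL, with 10 higher, 0 lower and a median of 0.90, beside the same 24.5% and 19.6% over all genes. Dmc1, the meiotic recombinase, rose from 20.5 and 11.2 to 121 and 69.0 (log2 2.52), and Tex11, a meiotic crossover factor, from 99.6 and 105 to 359 and 425 (log2 1.93), a call lost with library totals (0.90). C3+14 had 12 higher and 0 lower, C1C3b 8 and 2, C1C3a 6 and 3, C1C3c 3 and 1, and C1+14 1 and 1. The shares over all genes in each construct were those given with the piRNA genes. Tex11 reached 1046 and 1040.1 in C1C3b (log2 3.34), and Rec8, a meiotic cohesin, fell there from 122 and 149 to 12.3 and 7.51 (log2 -3.68). Sycp2, the partner of Sycp3 in the axial element, was called lower in C1C3a, where it had 2.21 and 2.83 normalised reads (2 reads in each library) against 23.1 and 26.6 in mCherry.

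Of 9 genes of primordial germ cells, 8 were tested in FL, and 0 were higher and 4 lower, with a median of -1.62. Over all genes 24.5% were higher and 19.6% lower, shares that stand beside every FL count in this paragraph. Tfap2c fell from 1514 and 1603 to 84.0 and 158 (log2 -3.74) and Prdm14 from 2172 and 2306 to 273 and 311 (log2 -2.94); both are regulators of germ cell specification, and Prdm14 also works in naive stem cells. Of 10 embryonic stem cell markers 7 were lower and 0 higher, with a median of -1.80, led by Sox2 (4962 and 4866 to 463 and 1039, log2 -2.82) and Klf4 (3203 and 3108 to 276 and 736, log2 -2.81). Of 18 repressors of germline genes 1 was higher, 3 were lower and 14 were not called, with a median of -0.03. Both FL counts lie under the shares over all genes, 24.5% higher and 19.6% lower. C3+14 and C1C3b each had 0 repressors higher and 5 lower (medians -0.46 and -0.73), beside 17.7% and 17.1% of all genes lower. C1C3a had 1 higher and 4 lower (beside 27.4% and 19%), C1C3c 0 and 2 (18.3% and 10.5%) and C1+14 0 and 0 (12.4% and 5.95%). In FL, Max fell from 1861 and 1952 to 467 and 581 (log2 -1.87) and Mga from 4078 and 4102 to 1358 and 1534 (log2 -1.50). Trim28, the 1 called higher there (log2 1.09), had -0.18 after quantile normalization. Of 8 retinoic acid response genes 1 was higher (Rarb, log2 1.94, lost with library totals at 0.97) and 2 lower, with a median of -1.01. Of the 6 fibroblast markers tested 1 was higher and 1 lower in FL, but 4 and 2 in C3+14, 3 and 2 in C1C3b, 2 and 1 in C1C3a and in C1C3c, and 1 and 1 in C1+14. Of the 7 testis somatic markers 0 were higher and 1 lower in FL, 0 and 3 in C3+14 and 1 and 2 in C1C3b. For both marker lists the shares over all genes in the other constructs were those given with the piRNA genes. All 6 2-cell markers were higher in FL. The part of these other genes in the members' levels was not tested.

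Across the 14 chimera libraries the members' log2 values correlated with each other to different degrees, as a description of libraries that share groups and scaling. Tdrd1 was most like Ddx4 (Pearson's r 0.886), Dazl (0.847) and Stk31 (0.824), and least like Tex101 (0.083). Stra8, Sycp3 and Tex101 formed pairs with r of 0.830, 0.718 and 0.727. They were not apart from the rest, as Mael had r of 0.79 with Sycp3 and 0.74 with Stra8, and Ddx4 0.70 with Sycp3. Sycp1 and Sycp3 had r of 0.226. Among all genes tested, those most like Dazl were A430035B10Rik (r 0.952) and Gja6 (0.949), the latter with 0 reads in mCherry. Those most like Stk31 were Gm7762 (0.966) and Xrcc5 (0.964), and those most like Ddx4 were Zc3hc1 (0.933) and 2810403D21Rik (0.915). Gm7762 went from 60.7 and 60.9 in mCherry to 278 and 407 in C3+14, and Zc3hc1 from 1397 and 1412 to 1903 and 2031.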

How the data were processed

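The authors deposited 2 tables of size-factor-normalised read counts per gene, a signal on a linear scale that is treated here as such. Per the submitters' processing notes, Trim Galore 0.5.0, FastQC, DESeq2 and the mm10 genome were used; the aligner, the counting program, its use of strand and the annotation are not given in the sources used here. Per the labels, libraries were made from total RNA with a stranded mRNA kit. Every deposited value gave whole reads on division by the value of 1 read (100% of values, tolerance 0.001), so depth was recovered. Of 55487 Ensembl identifiers, 55141 (99.4%) had a symbol in GENCODE M21.

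Values were tested as log2(value + 1) with limma 3.58.1 in R 4.3.3 (moderated, with a trend), on genes with at least 10 in at least 2 libraries (21584 in the chimera table, 19833 in the delt table), with all groups of a table sharing the spread. Fold changes are therefore on that log2 scale, which understates those of low genes. With Benjamini-Hochberg adjustment over all genes tested, calls needed an adjusted p under 0.05 and a log2 fold change of at least 1. With 2 against 2 libraries an exact permutation test could not go below p = 0.333. Alternatives were pseudocounts of 0.1 and 8, no filter, edgeR 4.0.16, DESeq2 1.42.0, quantile normalization, library totals, size factors from genes that share little sequence, a replicate block and each library left out. Tests were checked on simulated data with few changed genes, as many higher as lower, and a fixed spread. That check does not cover the dependence on scaling or the spread of these libraries. FL libraries held the same reads in both tables. C3delt14 was not analysed here. The members and lists were chosen with earlier results of these data known. Outside the members, the genes named were up to 2 of the largest called increases and 2 of the largest called decreases of a list, and the 2 genes most correlated with each of the 3 most abundant members. Single fibroblast and testis markers were named after their values were seen. Promoters came from RefSeq (GRCm38.p6).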

Additional observations from a re-analysis of the deposited data

How the results depend on the processing

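With 2 libraries per group 1 library can decide a call, and few reads limit Tex101 and the low Tdrd1 groups. Scaling to library totals, chosen after seeing the data as was the term for library kind, moved most. It reversed Ddx4 in FL against mCherry (log2 -0.0207) and Mael against FL in deltC12345+14 (0.13) and deltC12345delt14 (0.16), and weakened 13 of the 50 member results, 34 of which held. Under the other alternatives run on all 50, from 44 (edgeR) to 49 held and none reversed. Of 54 results on named list genes, 1 reversed: Trim28 in FL against mCherry was -0.18 after quantile normalization. The cause was not tested.

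Counts of called members against mCherry in FL were 3 with edgeR and 1 with library totals. In C3+14 against FL the count was 1 with DESeq2. In C1C3a against FL it was 1 with a pseudocount of 0.1, no filter, edgeR, DESeq2, the replicate block and library totals. Library totals gave 1 in C1C3a against C1+14, 5 in C1+14 against C3+14, 5 in C1+14 against FL and 1 in deltC12345delt14 against FL. In C12345delt14 against FL it was 1 with DESeq2, and in deltC12345+14 against FL it was 1 with edgeR. C12345delt14 against deltC12345delt14 gave 2 with a pseudocount of 8, 1 higher and 1 lower, and 0 with no filter. After quantile normalization and with library totals that count stayed at 1. The Tdrd1 call was lost in both, so another member was called there. With each library left out, counts against mCherry were 3 to 5 in FL, 5 to 7 in C3+14, 3 to 4 in C1C3a, 6 to 7 in C1C3b, 3 to 4 in C1C3c and 2 to 3 in C1+14. They were 0 to 2 in C3+14 against FL, 1 in C1C3a against FL, 5 to 6, 6 to 7 and 0 to 4 in C1C3a, C1C3b and C1C3c against C1+14, 8 to 9 in C1+14 against C3+14 and 6 to 8 in C1+14 against FL. In the delt table they were 0 in C12345delt14 against FL, 1 to 2 in deltC12345+14 against FL, 2 to 3 in deltC12345delt14 against FL, 0 to 2 in C12345delt14 against deltC12345delt14 and 0 in deltC12345+14 against deltC12345delt14. Of 200 single results with a library left out, 152 held and 48 lost the call.

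The labels give the groups the same replicate numbers, but these did not pair the samples: deviations of same-numbered libraries correlated from -0.101 to 0.050 over 21 pairs of groups and from -0.574 to 0.135 over 6. With the replicate block, 49 of 50 member results held, the exception being Tex101 in C1C3a against FL (adjusted p = 0.0587). Crossing the numbers in deltC12345+14 against deltC12345delt14 gave 0 calls.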
